A study of Mus musculus with 40 samples.

Results

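The spinal cord of mice that received the neurotoxin MPTP and then SU-Eohyeol pharmacopuncture, a herbal preparation with deer antler extract (SUEHP; MPTP-SU), was compared with the spinal cord of control mice (Con), with 4 libraries a group, 8 of the 40 libraries of the series. The 8 libraries were taken by their labelled tissue and treatment, and no measured value was used to choose them. All mice were male C57BL/6N, 8 weeks old when obtained. MPTP-SU mice had 4 intraperitoneal injections of MPTP at 20 mg/kg and, from a week later, 4 injections of SUEHP into both hind limbs at the acupoint GB34, below the head of the fibula. Con mice had saline in place of each. Other spinal cord groups of 4 libraries had MPTP and vehicle (MPTP-Veh), or MPTP and SUEHP with the cannabinoid receptor CB1 antagonist SR141716A, spelled SR141714A in the labels (3 mg/kg, MPTP-SU+S), or with the PPARγ antagonist T0070907 (5 mg/kg, MPTP-SU+T). MPTP-SU and Con differ in both MPTP and SUEHP, so the parts of the 2 treatments in a difference cannot be told apart in this comparison. The cord segments taken for sequencing and the number of mice behind a library are not given in the sources used here, so p-values measure the spread between libraries.

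MPTP is converted by glia to a toxin of mitochondrial complex I that dopamine neurons of the midbrain take up, and it is used in mice as a model of Parkinson's disease. The spinal cord holds none of those cell bodies. Its dorsal horn receives the sensory fibres of the limbs, passes pain signals to the brain, and responds to injury and inflammation with changes in neuropeptides, ion channels, activity-induced genes and glia. The comparison asks how the cord of an MPTP mouse treated at GB34 stands against that of a mouse given saline.

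The 8 libraries held between 14642808 and 16572206 counts. Reads assigned to Gm26917, a noncoding locus, took 8.04% of the counts of Con replicate 2 and 3.34% of Con replicate 1, against 0.703 to 1.20% in the other 6. Con replicate 2 stood apart from the other control libraries in several genes described below, so several counts are also given without it. Leaving out any 1 of the 8 libraries put between 2.82 and 9.88% of all genes higher and between 3 and 8.12% lower at an unadjusted p below 0.05, with 9.88% and 8.12% without Con replicate 2, and list counts under such omissions are read against these shares. Where a range of list values over these 8 omissions is given below, the brackets hold the library or libraries left out to get that end of it, as Con 2 for Con replicate 2, and an end without brackets equals the value with all libraries. Of the Hox genes of the cord, 24 of 24 passed the filter on low counts. So did all 18 astrocyte, 21 oligodendrocyte and 15 motor or cholinergic markers. Midbrain levels were not set beside these, so passing the filter is not a test of the label spinal cord. In bulk tissue, fewer cells of a type and less RNA per cell cannot be told apart.

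Across 16682 genes tested with edgeR's quasi-likelihood test, none passed an adjusted p of 0.05 together with a fold above 1.5, and none passed the adjusted p alone (0% called). The smallest adjusted p was 0.0957. At an unadjusted p below 0.05 there were 758 genes higher (4.54% of those tested) and 772 lower (4.63%) in MPTP-SU, and DESeq2 on the same 20 spinal cord libraries called 3 genes and on the 8 libraries alone 2. All 4 MPTP-SU libraries lay above all 4 Con libraries in 273 genes (1.64%) and below them in 312 (1.87%). Every gene below is therefore described by its values, and no gene in the comparison is called changed. Counts of list members at an unadjusted p below 0.05 are read against the 4.54% and 4.63% above, also where these are not repeated. In the text that follows, the unadjusted edgeR p serves for counts of genes and the edgeR adjusted p is given for single genes. Genes at an unadjusted p below 0.05 for which none is printed had an adjusted p between 0.460 and 0.531. A fold change is the fitted MPTP-SU over Con ratio on the log2 scale with its SE, and a level is the count scaled to library size (CPM) with TMM factors, given for replicates 1 to 4 in order. An exact two-sided permutation test of 4 against 4 libraries cannot go below p = 0.0286, which genes whose groups do not overlap reach.

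The 3 genes with the smallest p, Sgk1, Banp and Egr1, were lower in MPTP-SU, and 2 of them are rapidly induced genes. Immediate early genes are switched on within minutes by neuronal activity or hormones, and their products are mostly transcription factors. Sgk1, a kinase induced by glucocorticoids and by activity, was at 42.5, 36.7, 52.7 and 35.5 CPM in Con and 27.95, 27.6, 29.8 and 28.01 in MPTP-SU. The highest MPTP-SU library was below the lowest Con library, and the means were 28.3 ± 0.9999 against 41.9 ± 7.86 CPM (SD, n = 4; log2 fold change -0.57 ± 0.10, adjusted p = 0.0957). Egr1, a transcription factor used as a marker of neuronal activity, was at 46.04, 47.9, 63.5 and 48.9 CPM in Con and 31.1, 35.02, 33.1 and 33.8 in MPTP-SU. The groups again did not overlap (log2 fold change -0.63 ± 0.12, adjusted p = 0.177), and Con replicate 3 was the highest library for both genes. Banp, which encodes a DNA-binding protein of CpG island promoters, was at 26.3, 26.9, 31.3 and 25.3 CPM in Con and 14.7, 20.4, 16.996 and 16.6 in MPTP-SU, also without overlap (log2 fold change -0.68 ± 0.12, adjusted p = 0.0957). Egr1 and Banp passed both thresholds with DESeq2 on either set of libraries, and Sgk1, Egr1, Banp and Per1 passed them in edgeR without Con replicate 2, when 6 genes were called (0.0356%). Leaving out both control libraries with the largest Gm26917 shares, Con 1 and Con 2, gave 0 calls.

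**Figure D1:**
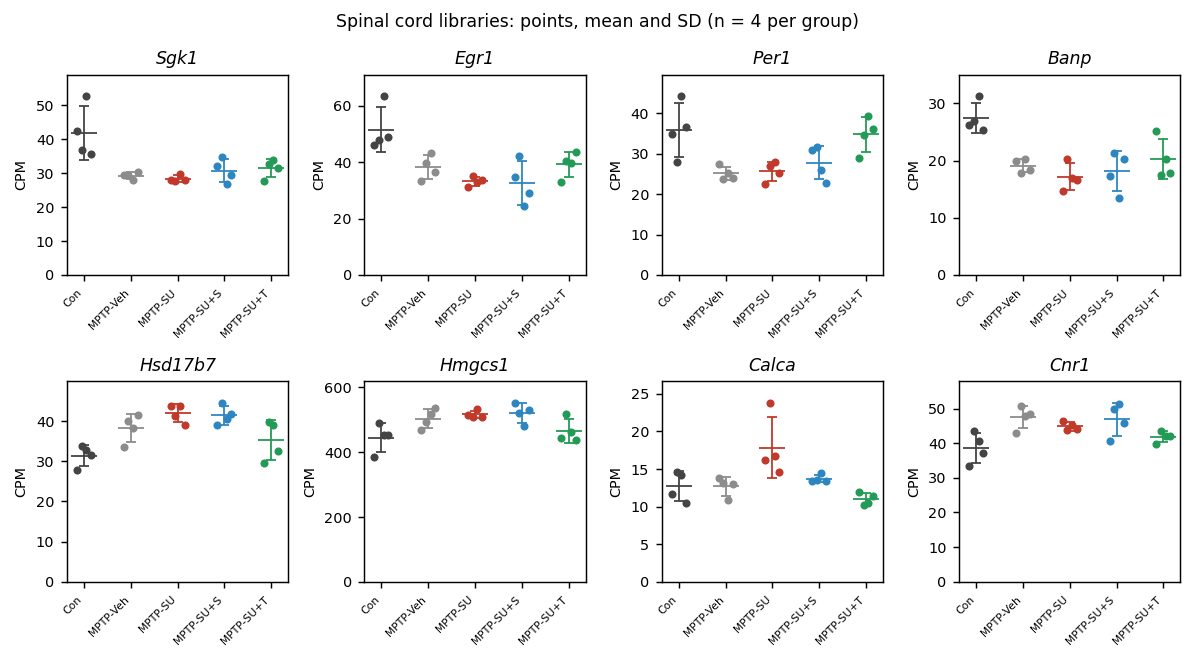
CPM of 8 genes in the 20 spinal cord libraries by group, with each library as a point and the mean and SD as a bar (n = 4). Sgk1, Egr1 and Banp lie lower in all 4 MPTP-SU libraries than in every Con library, and Hsd17b7, Hmgcs1 and Calca lie higher.

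Among 29 immediate early genes, 23 were lower and 6 higher in MPTP-SU, with a median log2 fold change of -0.12 against 0.00 over all genes tested. At an unadjusted p below 0.05 there were 6 lower members and 0 higher, against 4.63% and 4.54% of all genes. Leaving out 1 library at a time gave 7 lower members without Con replicate 2, but 3 without Con replicate 3 and 3 without MPTP-SU replicate 1. Beside Sgk1 and Egr1 the 6 were Fosb (log2 fold change -0.57 ± 0.17), Fos, Egr4 (log2 fold change -1.06 ± 0.46) and Egr3 (log2 fold change -0.38 ± 0.17). Fos, whose protein is the usual stain for activated dorsal horn neurons, was at 11.7, 12.3, 19.2 and 14.1 CPM in Con and 7.799, 10.3, 12.3 and 9.44 in MPTP-SU. The highest MPTP-SU library, replicate 3, was above the lowest Con library, so the groups overlapped (log2 fold change -0.53 ± 0.21). Fosb, a partner of Jun proteins like Fos, averaged 2.51 ± 0.303 CPM in MPTP-SU and 3.71 ± 0.875 CPM in Con (SD, n = 4). Egr4 was near the floor of detection, at 0.531, 0.603, 0.985 and 0.721 CPM in Con and 0.187, 0.439, 0.486 and 0.248 in MPTP-SU.

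The circadian clock is a loop in which Per and Cry proteins repress their own transcription, and Per1 is also induced by glucocorticoids. Per1 was at 34.9, 27.8, 44.2 and 36.5 CPM in Con and 22.5, 27.003, 27.8 and 25.1 in MPTP-SU, and every MPTP-SU library was below every Con library, the closest pair by under 1 CPM (log2 fold change -0.49 ± 0.12, adjusted p = 0.414). Of 23 clock genes and outputs, 6 were lower at p below 0.05 and 0 higher, where 4.63% and 4.54% of all genes were. They were Per1, Per2 (log2 fold change -0.26 ± 0.10), the repressors Cry1 (-0.17 ± 0.07) and Cry2 (-0.14 ± 0.06), the clock-driven factor Dbp (log2 fold change -0.26 ± 0.09) and Bhlhe41, a repressor that binds E-boxes (log2 fold change -0.16 ± 0.05). Bhlhe41 was at 94.5, 101, 87.98 and 94.2 CPM in Con and 86.7, 86.1, 79.7 and 85.1 in MPTP-SU, without overlap. The other members lay on both sides of 0, with a median over the list of -0.03 that was 0.00 without Con replicate 2, when 1 member was higher and 5 lower at that p. The activators Clock and Bmal1 were not among the 6. Time of day at tissue collection is not given in the sources used here.

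Of 20 glucocorticoid-responsive genes, 2 were lower (Sgk1 and Per1) and 1 higher at p below 0.05. The higher one was Nr3c1, the glucocorticoid receptor itself (log2 fold change 0.14 ± 0.06). It averaged 88.2 ± 4.26 CPM in MPTP-SU against 80.01 ± 6.61 CPM in Con (SD, n = 4), with overlap between the groups. The list's median was -0.03, and leaving out 1 library gave 0 (Con 1, Con 3 and MPTP-SU 1) to 3 (Con 2) higher and 2 to 5 (Con 2 and MPTP-SU 4) lower. Of 27 heat shock genes and chaperones, which help proteins fold, 23 were lower and 3 were so at p below 0.05. That number was 5 without Con replicate 2 or MPTP-SU replicate 2, and 1 under scaling by library size alone. Dnajb1, a co-chaperone of the main inducible Hsp70, was at 35.2, 36.3, 40.2 and 40.3 CPM in Con and 26.3, 35.1, 29.1 and 34.7 in MPTP-SU (log2 fold change -0.28 ± 0.08), and Hspd1, the mitochondrial chaperonin, had a log2 fold change of -0.12 ± 0.05. Both had groups that did not overlap.

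The promoters of 3 of the lower clock genes are shown because each holds the E-box CACGTG, the letters bound by the clock activators and by Bhlhe41. Per2, Cry2 and Dbp, the other lower ones at p below 0.05, are not shown, so the E-box is not given here as a trait of all of them. The windows run from 250 bases before to 50 after the start, 5′ to 3′, from RefSeq on GRCm38.p6, and the E-box is in capitals. CACGTG, which reads the same on both strands, is in a window of 8.09% of all 27025 genes that have one. It is in 5 of 18 clock genes with a window, in 6 of 25 immediate early genes and in 4 of 16 cholesterol genes, which is a description of letters and not of binding.
Per1, chr11:69098699-69098998, plus strand: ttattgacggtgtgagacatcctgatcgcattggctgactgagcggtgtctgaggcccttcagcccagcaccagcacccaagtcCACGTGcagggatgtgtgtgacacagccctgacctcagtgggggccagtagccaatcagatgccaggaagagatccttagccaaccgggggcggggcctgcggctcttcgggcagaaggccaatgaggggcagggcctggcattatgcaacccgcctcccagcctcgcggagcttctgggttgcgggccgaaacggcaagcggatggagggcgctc
Bhlhe41, chr6:145865371-145865670, minus strand: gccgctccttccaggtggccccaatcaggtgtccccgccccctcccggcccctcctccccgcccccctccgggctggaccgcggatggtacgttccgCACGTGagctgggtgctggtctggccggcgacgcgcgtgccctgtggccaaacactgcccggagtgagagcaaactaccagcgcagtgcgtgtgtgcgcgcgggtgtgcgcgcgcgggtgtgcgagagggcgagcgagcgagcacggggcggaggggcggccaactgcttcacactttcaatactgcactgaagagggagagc
Cry1, chr10:85185005-85185304, minus strand: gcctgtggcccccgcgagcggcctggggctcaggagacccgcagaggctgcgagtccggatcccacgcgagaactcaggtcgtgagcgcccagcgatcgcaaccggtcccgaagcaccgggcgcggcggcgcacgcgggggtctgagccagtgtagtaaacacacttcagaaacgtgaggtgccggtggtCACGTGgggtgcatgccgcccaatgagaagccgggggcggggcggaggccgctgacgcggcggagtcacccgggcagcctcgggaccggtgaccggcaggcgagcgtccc
The E-box begins 166 bases before the start in Per1, 153 in Bhlhe41 and 60 in Cry1. The Per1 window is the first of 2 listed, and the second holds no CACGTG.

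Most genes of cholesterol synthesis had higher levels in MPTP-SU. Cholesterol in the spinal cord is made locally, largely for myelin, and its enzymes are transcribed together under SREBP2, which is released when sterols run low. Of 20 genes tested, 17 were higher, 10 of them at p below 0.05 (4.54% of all genes were), and 0 were lower at that p. The median log2 fold change was 0.16, and leaving out 1 library at a time kept between 7 (without Con replicate 1) and 13 (without Con replicate 2) higher members at that p, and medians of 0.12 to 0.22. Hsd17b7, which reduces a keto group late in the pathway, was at 27.7, 33.7, 32.7 and 31.4 CPM in Con and 43.7, 41.4, 43.8 and 39.1 in MPTP-SU. All 4 MPTP-SU libraries were above all 4 Con libraries, a fold of 1.34 (log2 fold change 0.42 ± 0.09, adjusted p = 0.177).

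Groups did not overlap in 4 of the 20 members, where 1.64% of all genes were higher without overlap. Beside Hsd17b7 they were Hmgcs1, an early enzyme of the pathway (log2 fold change 0.22 ± 0.06), Idi1, which isomerises the isoprenoid unit (log2 fold change 0.25 ± 0.07), and Lss, which closes the rings of the first sterol (log2 fold change 0.27 ± 0.07). Hmgcs1 was at 385, 491, 452 and 452 CPM in Con and 514, 510.2, 534 and 508 in MPTP-SU. Con replicate 1 was the lowest library in Hsd17b7, Hmgcs1 and Lss, and all 3 other Con libraries lay between it and MPTP-SU. The other 6 at p below 0.05 were Dhcr7, Sqle, Stard4, Insig1, Sc5d and Msmo1, with log2 fold changes from 0.16 ± 0.07 in Sc5d to 0.23 ± 0.08 in Stard4, and in all 6 the groups overlapped. Insig1, which holds SREBP2 in the endoplasmic reticulum and is itself one of its targets, averaged 109 ± 5.38 CPM in MPTP-SU and 97.03 ± 9.77 CPM in Con (SD, n = 4; log2 fold change 0.17 ± 0.06).

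**Figure D2:**
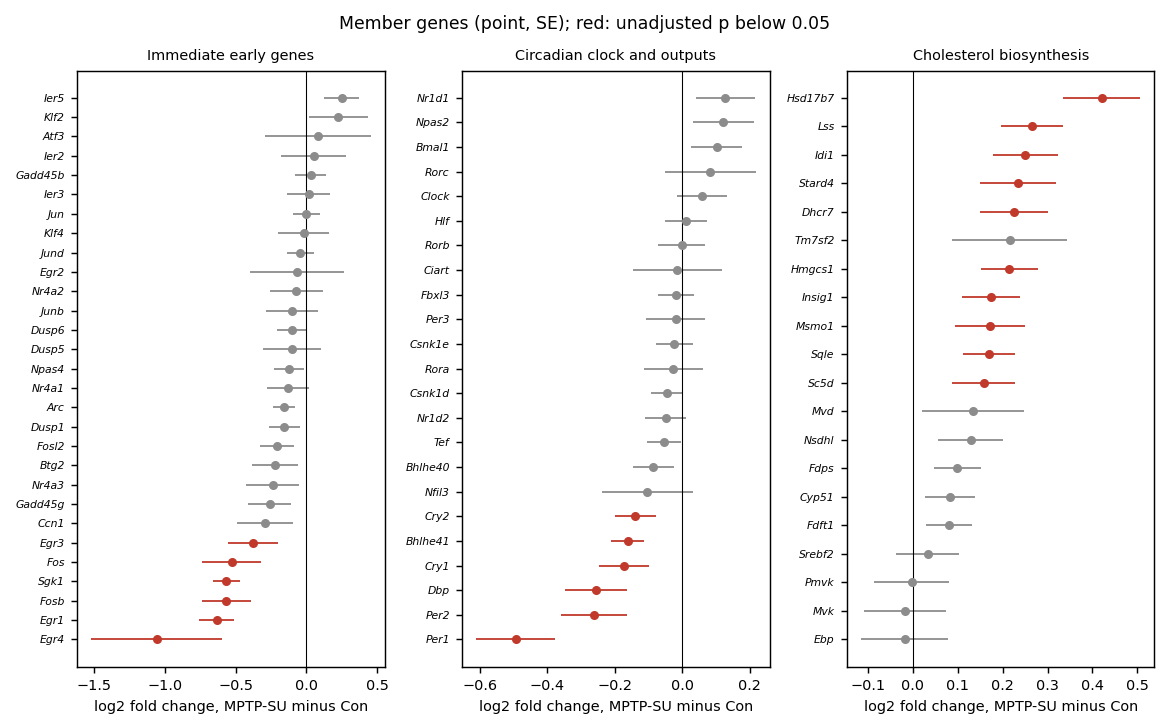
Log2 fold change of MPTP-SU over Con for each tested member of 3 gene lists, with the SE as a bar and p below 0.05 in red. The members at that p were all lower among immediate early and clock genes (6 in each list) and all higher among cholesterol genes (10).

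The promoters of 4 cholesterol genes whose groups did not overlap are shown for a sequence feature that the gene list did not use. The CCAAT box, the site of NF-Y, a factor that binds beside SREBP, was found on 1 of the strands in 16 of 16 genes of the list with a window, against 41.1% of all 27025 genes with one. It was also in 14 of 18 clock genes and 11 of 25 immediate early genes with a window. It is printed as ATTGG where it lies on the other strand, in capitals and in windows of the same length, source and build as above. A match to it cannot overlap a match to CACGTG, which the Hsd17b7 window also holds, left in lower case. Sqle, Stard4, Fdft1 and Fdps are named only.
Hsd17b7, chr1:169969156-169969455, minus strand: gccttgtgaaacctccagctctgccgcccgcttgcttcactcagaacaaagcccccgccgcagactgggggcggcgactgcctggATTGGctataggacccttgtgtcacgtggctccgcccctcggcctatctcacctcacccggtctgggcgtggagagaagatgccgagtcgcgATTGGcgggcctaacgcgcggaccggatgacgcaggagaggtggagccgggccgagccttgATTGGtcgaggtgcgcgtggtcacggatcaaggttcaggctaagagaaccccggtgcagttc
Hmgcs1, chr13:119690101-119690400, plus strand: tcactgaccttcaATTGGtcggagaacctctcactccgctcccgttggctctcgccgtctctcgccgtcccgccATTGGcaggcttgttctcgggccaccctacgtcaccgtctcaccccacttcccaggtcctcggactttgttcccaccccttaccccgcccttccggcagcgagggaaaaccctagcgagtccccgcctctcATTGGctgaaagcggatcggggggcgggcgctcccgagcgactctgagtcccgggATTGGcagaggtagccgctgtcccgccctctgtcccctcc
Lss, chr10:76531355-76531654, plus strand: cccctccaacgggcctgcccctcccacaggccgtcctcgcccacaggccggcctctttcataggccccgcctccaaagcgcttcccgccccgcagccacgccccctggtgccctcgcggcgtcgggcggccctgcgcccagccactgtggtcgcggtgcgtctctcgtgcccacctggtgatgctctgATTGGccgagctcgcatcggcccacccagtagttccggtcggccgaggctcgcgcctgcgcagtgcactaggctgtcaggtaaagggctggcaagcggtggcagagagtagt
Idi1, chr13:8885356-8885655, plus strand: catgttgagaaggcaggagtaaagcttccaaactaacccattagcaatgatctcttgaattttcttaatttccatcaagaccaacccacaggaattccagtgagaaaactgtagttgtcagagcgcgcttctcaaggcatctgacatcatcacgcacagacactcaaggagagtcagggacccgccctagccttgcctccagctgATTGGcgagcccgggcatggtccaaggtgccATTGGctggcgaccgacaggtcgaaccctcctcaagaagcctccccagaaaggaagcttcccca
In these windows the boxes number 3 in Hsd17b7, 4 in Hmgcs1, 1 in Lss and 2 in Idi1. A match says only that these letters are there.

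Transcripts of the mitochondrial genome took a larger share of the MPTP-SU libraries. They made up 15.1 to 16.5% of all counts in MPTP-SU and 12.4 to 14.2% in Con, without overlap. The share was 14.3 to 16.4% in MPTP-Veh, 14.8 to 18.0% in MPTP-SU+S and 11.0 to 13.6% in MPTP-SU+T. These are shares of raw counts, of which Gm26917 took 8.04% in Con replicate 2 and 11.0% in MPTP-SU+T replicate 1. As summed CPM with TMM factors the groups overlapped, at 121660 to 157130 in Con and 149900 to 165130 in MPTP-SU. Con replicate 2 was the highest of Con. The mitochondrial genome encodes 13 subunits of the respiratory chain, and 11 of the 13 were higher at p below 0.05 (4.54% of all genes were) and 0 lower (1 without Con replicate 3), with a median log2 fold change of 0.26 (0.39 without Con replicate 2). The number was 7 without Con replicate 4 or MPTP-SU replicate 3, and 12 stayed above 0 without any 1 library. The complex I subunits ND1 (log2 fold change 0.37 ± 0.10), ND2 (log2 fold change 0.30 ± 0.08) and ND4 (log2 fold change 0.36 ± 0.10) had the smallest p. ND4 was at 12977, 16463, 12478 and 12584 CPM in Con and 17407, 16585, 18187 and 17564 in MPTP-SU, with Con replicate 2 far above the other controls and only just under the lowest MPTP-SU library. ND6, the subunit read from the other strand, was lower in MPTP-SU on average (92.7 ± 9.67 against 106 ± 20.6 CPM, SD, n = 4; log2 fold change -0.20 ± 0.12, adjusted p = 0.633), and ND3 had a log2 fold change of 0.26 ± 0.14 (adjusted p = 0.597). The 13 transcripts share the same libraries and the same mitochondrial share, so they are not independent of each other.

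Complex I subunits encoded in the nucleus, which join the mitochondrial ND subunits in the same complex, were lower in 31 of 37 cases. The median was -0.08, and 5 were lower and 0 higher at p below 0.05, where 4.63% and 4.54% of all genes were. This count rested on single libraries. It was 0 without Con replicate 1, 13 without Con replicate 2, 3 without MPTP-SU replicate 1 or 2, 2 without MPTP-SU replicate 3 and 2 under scaling by library size alone. Ndufa13 (log2 fold change -0.14 ± 0.06), Ndufv1, which carries the NADH site (log2 fold change -0.14 ± 0.06), and Ndufa2 (log2 fold change -0.18 ± 0.08) had the smallest p. In none of the 37 did the groups separate, where 1.64% of all genes were higher without overlap and 1.87% lower. Ndufa13 was at 106, 80.8, 88.4 and 93.8 CPM in Con and 84.7, 80.9, 83.5 and 84.96 in MPTP-SU, a spread in Con that covered every MPTP-SU library. Among 30 NRF2 and antioxidant genes, 3 were lower and 1 higher at that p, where 4.63% and 4.54% of all genes were. Leaving out 1 library gave 1 to 2 (Con 1, Con 2 and Con 3) higher and 1 (Con 1, Con 3, Con 4 and MPTP-SU 3) to 4 (Con 2) lower. Sod1, the cytosolic superoxide dismutase, had a log2 fold change of -0.21 ± 0.07, Gsr, glutathione reductase, -0.17 ± 0.08, and Cat, catalase, 0.17 ± 0.06. Cat was at 89.5, 104, 113 and 109 CPM in Con and 114, 117, 119 and 118 in MPTP-SU, without overlap.

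**Figure D3:**
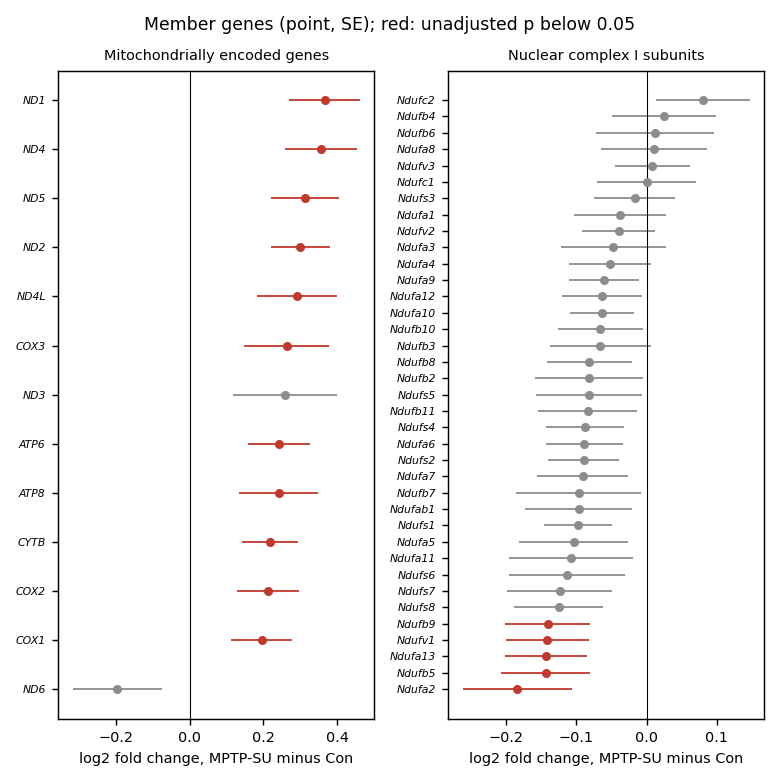
Log2 fold change of MPTP-SU over Con for the 13 mitochondrially encoded genes and 37 nuclear complex I subunits, with the SE as a bar and p below 0.05 in red. Of the mitochondrial genes 12 lie above 0 and ND6 below it, while 31 of the nuclear subunits lie below 0.

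Microglia, the resident immune cells of the cord, are measured here by 19 marker genes. Of these 18 were higher in MPTP-SU, 5 at p below 0.05 (4.54% of all genes were), and the median was 0.12. Itgam, which encodes the CD11b antigen, was at 11.8, 14.4, 15.8 and 12.9 CPM in Con and 15.3, 17.04, 17.6 and 16.5 in MPTP-SU, so that the lowest MPTP-SU library was below the highest of Con (log2 fold change 0.28 ± 0.09). The fractalkine receptor Cx3cr1 (log2 fold change 0.19 ± 0.07), Olfml3 (log2 fold change 0.28 ± 0.11), the purinergic receptor P2ry12 (log2 fold change 0.25 ± 0.10) and the growth factor receptor Csf1r (log2 fold change 0.19 ± 0.08) were the others. Groups overlapped in all of the 19, where 1.64% of all genes were higher without overlap and 1.87% lower. The 5 were 3 without Con replicate 1 or Con replicate 4, when 2.82% and 3.65% of all genes were higher at that p, and 2 without MPTP-SU replicate 3, when 3.15% were. The summed level of the markers was 381 to 435 CPM in Con and 434 to 466 CPM in MPTP-SU. Aif1, which encodes IBA1, averaged 4.35 ± 0.525 CPM in MPTP-SU and 3.74 ± 0.639 CPM in Con (SD, n = 4; log2 fold change 0.22 ± 0.16, adjusted p = 0.684). Cd180, a Toll-like receptor homologue that is on no marker list here, was at 0.864, 1.66, 1.797 and 1.44 CPM in Con and 3.12, 2.57, 3.64 and 2.42 in MPTP-SU, without overlap (log2 fold change 1.02 ± 0.23, adjusted p = 0.389).

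Among 30 genes of p38, NF-kB and cytokine signalling, 3 were higher and 1 lower at p below 0.05, where 4.54% and 4.63% of all genes were. Leaving out 1 library gave 2 (Con 1, MPTP-SU 1 and MPTP-SU 3) to 4 (Con 2, MPTP-SU 2 and MPTP-SU 4) higher and 1 to 2 (Con 2, Con 4 and MPTP-SU 4) lower. The interleukin 1 receptor Il1r1 was at 3.92, 4.901, 4.93 and 4.45 CPM in Con and 5.99, 5.95, 6.43 and 6.27 in MPTP-SU, without overlap (log2 fold change 0.44 ± 0.14). The Toll-like receptors Tlr3 and Tlr4 had log2 fold changes of 0.20 ± 0.08 and 0.73 ± 0.31. Mapk14, the p38α kinase, was the lower one, at 49.8, 47.1, 47.6 and 43.9 CPM in Con and 39.5, 45.9, 39.6 and 41.7 in MPTP-SU, with overlap (log2 fold change -0.18 ± 0.06). The cytokine genes Tnf, Il1b, Il6, Ccl2, Ccl3, Ccl4 and Ccl5 did not pass the filter on low counts. Of 27 interferon response genes and 18 genes of antigen presentation and complement, 0 were past that unadjusted p in either direction in this comparison, with medians of 0.09 and 0.07. Leaving out 1 library gave 0 to 1 (Con 3, MPTP-SU 3 and MPTP-SU 4) higher and 0 to 1 (Con 2) lower for interferon genes, and 0 to 3 (Con 3) higher and 0 to 1 (Con 2) lower for antigen presentation and complement.

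Astrocyte markers went both ways, with 4 higher and 2 lower of 18 at p below 0.05. Leaving out 1 library gave 2 (Con 1, Con 3 and Con 4) to 4 higher and 0 (Con 1 and MPTP-SU 1) to 2 lower. The hyaluronan receptor Cd44 (log2 fold change 0.23 ± 0.08) and the water channel Aqp4 (log2 fold change 0.28 ± 0.10) were higher. Aqp4 was at 442, 756, 617 and 626 CPM in Con and 723, 739, 753 and 741 in MPTP-SU, where Con spanned a wide range with its highest library above all of MPTP-SU. Gfap, the intermediate filament of reactive astrocytes, was at 929.9, 1165, 1132 and 1145 CPM in Con and 1032, 1124, 1325 and 1266 in MPTP-SU, and the difference was within the spread of the libraries (log2 fold change 0.12 ± 0.08, adjusted p = 0.651). Of 21 oligodendrocyte and myelin genes 20 were higher, 3 at p below 0.05, and leaving out 1 library gave 1 (MPTP-SU 4) to 7 (Con 2) higher and 0 to 1 (Con 2) lower at that p. Ugt8a, which makes the myelin lipid galactosylceramide, was at 252, 349, 329 and 285 CPM in Con and 373, 376, 383 and 345 in MPTP-SU (log2 fold change 0.28 ± 0.08). It also had the smallest p among 27 glycosphingolipid genes. Of these 4 were higher and 1 lower at that p, where 4.54% and 4.63% of all genes were. The omission of 1 library gave 1 (Con 1) to 5 (Con 2, Con 3, Con 4 and MPTP-SU 4) higher and 0 (Con 1, Con 3, Con 4 and MPTP-SU 1) to 2 (Con 2 and MPTP-SU 3) lower.

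Pain-related peptides of the sensory fibres and dorsal horn were measured in 22 genes, of which 1 was higher and 2 lower at p below 0.05. Calca, which encodes the peptide CGRP of pain fibres and of motor neurons, was at 11.7, 14.6, 14.2 and 10.5 CPM in Con and 16.2, 23.8, 16.8 and 14.7 in MPTP-SU. The lowest MPTP-SU library was just above the highest Con library, and MPTP-SU replicate 2 was far above the rest (log2 fold change 0.49 ± 0.12). Cck, cholecystokinin, was lower, at 25.8, 21.3, 20.6 and 21.03 CPM in Con and 18.4, 19.9, 16.996 and 18.7 in MPTP-SU (log2 fold change -0.26 ± 0.09). Npff, a peptide that modulates opioid signalling, was at 1.99, 1.89, 1.39 and 1.44 CPM in Con and 0.998, 1.002, 0.971 and 0.807 in MPTP-SU, without overlap, as for Cck (log2 fold change -0.81 ± 0.28). The list's median was 0.02, and leaving out 1 library gave 1 to 3 (Con 1) higher and 2 to 4 (Con 2) lower at that p.

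Receptors and channels of pain fibres gave few members at an unadjusted p below 0.05. Of 23 nociceptive receptors, 1 was higher, the irritant-gated channel Trpa1, which stayed near or below 1 CPM in all libraries (log2 fold change 1.02 ± 0.43). The list had 0 (Con 1) to 1 higher and 0 to 1 (Con 4, MPTP-SU 1 and MPTP-SU 4) lower when 1 library was left out. Of 11 voltage-gated sodium channels, a separate list, 1 was higher and 1 lower at that p, with a median of 0.03. With 1 library left out there were 1 to 3 (Con 2) higher and 0 (Con 3, Con 4 and MPTP-SU 3) to 1 lower. The higher one, the sodium channel Scn9a, or Nav1.7, was at 6.18, 6.94, 7.07 and 6.61 CPM in Con and 10.5, 11.2, 7.65 and 7.204 in MPTP-SU. Its groups did not overlap, but the MPTP-SU libraries were in a high and a low pair (log2 fold change 0.44 ± 0.14). The neurotrophin receptor Ngfr was at 2.86, 2.11, 2.96 and 4.81 CPM in Con and 4.55, 6.83, 3.64 and 4.78 in MPTP-SU, with overlap (log2 fold change 0.62 ± 0.22). Beside these, 10 of 16 markers of Schwann cells, nerve roots and sensory ganglia were tested, 0 at p below 0.05 (1 higher without MPTP-SU replicate 4), and the list's summed level was 1332 to 2920 CPM in Con and 1666 to 2885 CPM in MPTP-SU. The ganglion genes Scn10a, Scn11a, Trpv1, Mrgprd, Prdm12 and Avil did not pass the filter. The share of root tissue in a library was not tested against Calca, Scn9a or Ngfr.

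Trophic factors were measured in 22 genes, with 3 higher and 1 lower at p below 0.05, where 4.54% and 4.63% of all genes were. With 1 library left out there were 2 (Con 1, MPTP-SU 1, MPTP-SU 2 and MPTP-SU 3) to 6 (Con 2) higher and 1 lower. Vegfa, the vascular growth factor, was the lower one, at 80.6, 82.3, 90.6 and 91.2 CPM in Con and 71.4, 73.3, 67.9 and 80.8 in MPTP-SU, and the groups overlapped at a single pair of libraries (log2 fold change -0.23 ± 0.07). The adaptor Shc1 was higher without overlap (log2 fold change 0.24 ± 0.08). Bdnf, a trophic factor released in the dorsal horn, averaged 8.18 ± 0.782 CPM in MPTP-SU and 8.43 ± 1.15 CPM in Con (SD, n = 4), and its log2 fold change of -0.04 ± 0.12 was under its SE (adjusted p = 0.927).

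Synaptic receptors and calcium channels had members at p below 0.05 on the higher side alone. There were 4 of 30 for GABA and glycine transmission, 3 of 29 for glutamate and 4 of 21 for calcium channels, where 4.54% of all genes were higher. These counts depended on single libraries, and without Con replicate 2 the share of all genes was 9.88%. With 1 library left out, GABA and glycine transmission had 0 (Con 3, Con 4, MPTP-SU 1 and MPTP-SU 3) to 11 (Con 2) higher and 0 to 1 (Con 2 and Con 4) lower. Glutamate genes had 0 (Con 1) to 9 (Con 2) higher and 0 to 2 (Con 2) lower in the same omissions. Calcium channels had 2 (Con 1, Con 3, MPTP-SU 1, MPTP-SU 2 and MPTP-SU 3) to 5 (Con 2) higher and 0 lower. Grin3a, an NMDA receptor subunit, shows the pattern, at 44.4, 60.02, 51.6 and 47.4 CPM in Con and 56.7, 58.3, 56.9 and 58.2 in MPTP-SU (log2 fold change 0.18 ± 0.07). Con replicate 2 was above all MPTP-SU libraries while the other 3 controls were below them. The same order held for Cacna2d1, the α2δ1 subunit that gabapentin binds (log2 fold change 0.19 ± 0.09). Glrb, the glycine receptor's β subunit, had the smallest p of its list, at 281, 347, 272 and 284 CPM in Con and 339, 323, 337 and 323 in MPTP-SU (log2 fold change 0.16 ± 0.07), and the groups overlapped. Grik3, a kainate receptor subunit, was at 29.9, 32.3, 31.9 and 31.9 CPM in Con and 35.2, 33.7, 35.7 and 32.4 in MPTP-SU (log2 fold change 0.12 ± 0.06). It was the lone member of the 3 lists without overlap, where 1.64% of all genes were higher without overlap and 1.87% lower. Cacna1d, an L-type channel, had a log2 fold change of 0.18 ± 0.06.

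The study's antagonists act on the cannabinoid receptor CB1 and on PPARγ, and the genes of these systems were read in the same way. Of 17 endocannabinoid genes, 1 was higher and 1 lower at p below 0.05, and 1 to 2 (Con 3, MPTP-SU 1 and MPTP-SU 2) higher and 1 to 2 (Con 3) lower with 1 library left out. Cnr1, which encodes CB1, was at 33.5, 43.5, 40.6 and 37.2 CPM in Con and 46.5, 43.7, 45.3 and 43.97 in MPTP-SU, with the lowest MPTP-SU library just above the highest of Con (log2 fold change 0.21 ± 0.08). Gde1, a phosphodiesterase that can release anandamide, was at 87.96, 88.2, 92.4 and 94.5 CPM in Con and 78.9, 81.6, 81.2 and 87.8 in MPTP-SU, also without overlap (log2 fold change -0.14 ± 0.05). Pparg itself averaged 1.61 ± 0.369 CPM in MPTP-SU and 1.39 ± 0.353 CPM in Con (SD, n = 4; log2 fold change 0.22 ± 0.23, adjusted p = 0.785). Of 33 PPAR receptors, partners and targets, 3 were higher and 0 lower at that p, where 4.54% and 4.63% of all genes were. With 1 library left out there were 1 (Con 1) to 6 (Con 2) higher and 0 to 3 (Con 2) lower. The 3 were the fatty acid ligase Acsl1 (log2 fold change 0.15 ± 0.06), lipoprotein lipase Lpl (log2 fold change 0.37 ± 0.16) and Fabp4, a fat-cell lipid carrier that was at 0.332, 0.151, 0.0580 and 0.361 CPM in Con and 0.873, 1.002, 0.425 and 0.683 in MPTP-SU (log2 fold change 1.69 ± 0.62). Of 13 fat tissue markers 6 passed the filter, with Adipoq, Plin1, Cfd, Cidec, Ucp1, Lep and Retn below it. Of the 6, 3 were higher and 0 lower at that p, and 1 (Con 1 and Con 4) to 3 higher and 0 lower with 1 library left out. The list's summed level, in which Scd1, an enzyme that other cells use too, is counted, was 509.9 to 662 CPM in Con and 637 to 671 CPM in MPTP-SU, and the part of fat tissue in Fabp4 and Lpl was not tested.

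The other tissues and cells that a dissected cord can hold were read from marker lists. Blood cell markers were lower in 13 of 14, with a median of -0.24, 1 of them at p below 0.05 and summed levels of 439.9 to 1422 CPM in Con and 419 to 743 CPM in MPTP-SU. The direction turned on Con replicate 1, the highest of Con: without it 9 of the markers were higher and 5 lower, and medians over the omissions ran from -0.49 (Con 4) to 0.19 (Con 1), with 0 higher and 0 (Con 1, Con 3, MPTP-SU 1, MPTP-SU 2 and MPTP-SU 3) to 5 (Con 4) lower at that p. Skeletal muscle markers were higher in 15 of 16 with a median of 0.38 but 0 at that p, and summed to 120.3 to 245 and 127 to 255 CPM. Their median was 0.13 (MPTP-SU 2) to 0.85 (Con 4) with 1 library left out. Leptomeningeal fibroblast markers had a median of 0.14 and 0 members at that p, and medians of 0.04 (MPTP-SU 3) to 0.26 (Con 3) and 0 to 1 (MPTP-SU 1) higher and 0 to 1 (Con 4 and MPTP-SU 3) lower with 1 library left out. Ependymal markers had a median of -0.25 and 1 lower member, but medians of -0.32 (Con 3) to -0.02 (Con 1) and 0 to 1 (Con 4) higher and 0 (Con 1, Con 3, MPTP-SU 1, MPTP-SU 3 and MPTP-SU 4) to 1 lower in these omissions. Among 20 vascular markers 2 were higher, including the endothelial adhesion molecule Pecam1 (log2 fold change 0.23 ± 0.08), and 1 (Con 3, Con 4 and MPTP-SU 1) to 3 (Con 2, MPTP-SU 2 and MPTP-SU 3) higher and 0 lower with 1 library left out. Among 30 matrix genes there were 3, and 1 (Con 1 and MPTP-SU 2) to 4 (MPTP-SU 1) higher and 0 to 1 (Con 2) lower in the omissions. Fbn1, fibrillin 1, was at 10.03, 9.803, 10.6 and 10.04 CPM in Con and 11.9, 12.3, 12.9 and 11.9 in MPTP-SU (log2 fold change 0.27 ± 0.09). Pan-neuronal genes had 0 of 10 members past that unadjusted p and a median of 0.01, with 0 to 2 (Con 2) higher and 0 to 1 (Con 2 and MPTP-SU 4) lower over the omissions. Of 15 motor and cholinergic genes, Slc5a7, the choline transporter (log2 fold change 0.32 ± 0.11), and Calca were the 2 higher ones.

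Hox genes keep the position of a cell along the cord, with the groups of higher number active further down. Of 24, 3 were lower and 1 higher at p below 0.05, where 4.63% and 4.54% of all genes were. The omissions gave 0 (Con 1, Con 3, Con 4, MPTP-SU 1, MPTP-SU 3 and MPTP-SU 4) to 1 higher and 2 (Con 4, MPTP-SU 1 and MPTP-SU 4) to 6 (Con 2) lower. Hoxd10 was at 61.1, 42.1, 41.4 and 44.5 CPM in Con and 35.2, 45.4, 31.1 and 33.7 in MPTP-SU (log2 fold change -0.38 ± 0.11) and Hoxa10 at 34.7, 31.6, 31.5 and 34.9 CPM in Con and 31.6, 30.7, 24.2 and 23.1 in MPTP-SU (log2 fold change -0.28 ± 0.09), both lumbar genes with overlap between the groups. Hoxc8, a thoracic gene, was higher (log2 fold change 0.18 ± 0.08). The level at which the cords were cut is not given in the sources used here, and its part in the other results was not tested. Monoamine genes, which in the cord mark fibres from the brainstem, had 0 of 19 past that unadjusted p, and 0 to 1 (Con 4) higher and 0 to 1 (Con 4 and MPTP-SU 2) lower with 1 library left out. Th, the first enzyme of dopamine and noradrenaline synthesis, averaged 3.08 ± 0.645 CPM in MPTP-SU and 3.61 ± 0.275 CPM in Con (SD, n = 4; log2 fold change -0.23 ± 0.17, adjusted p = 0.692), and Slc6a3, Slc6a2, Dbh and Slc18a2 did not pass the filter.

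**Figure D4:**
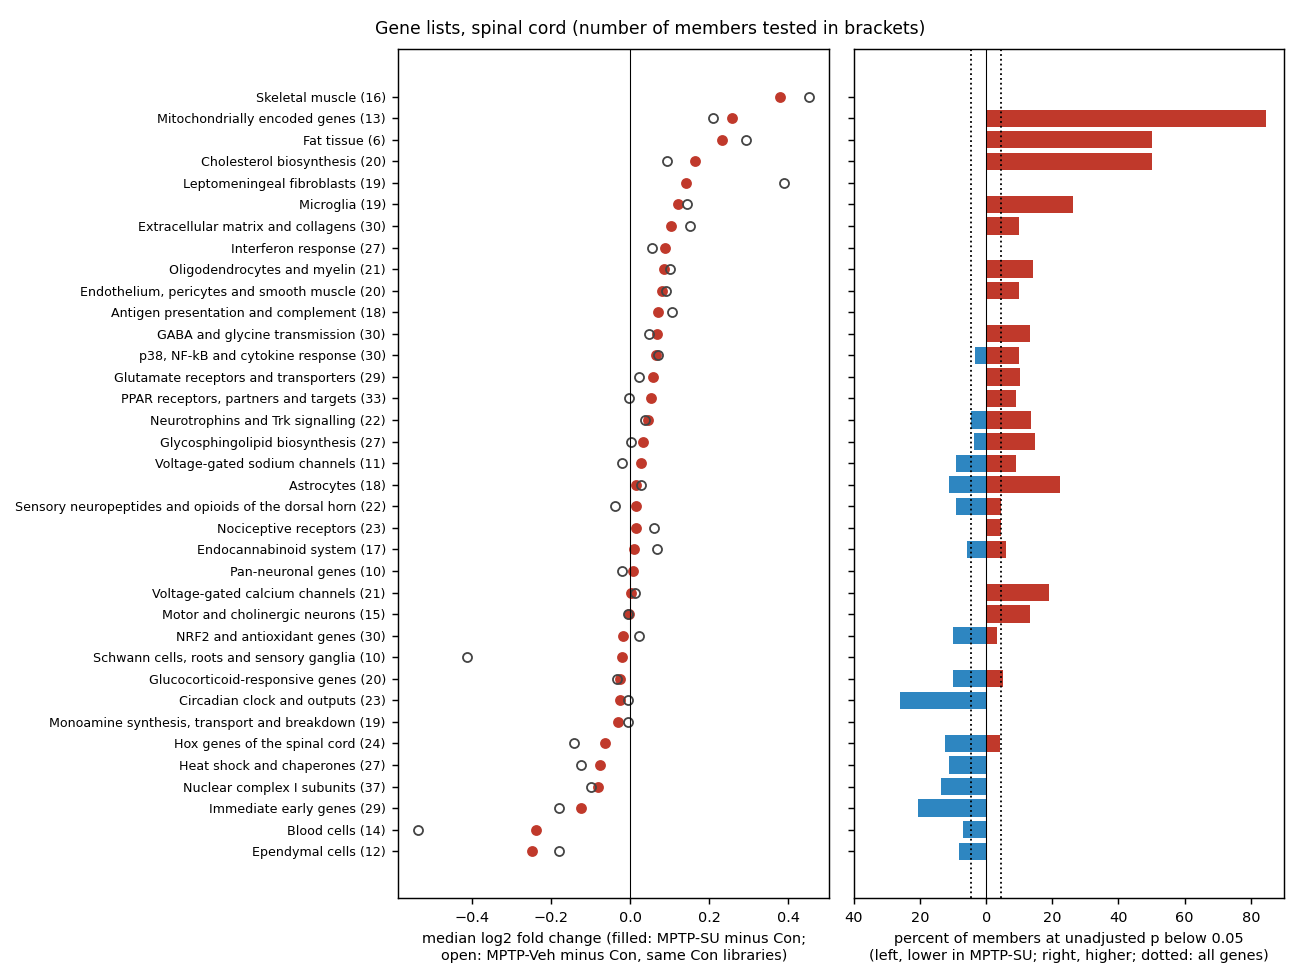
Median log2 fold change (left) and percent of members at p below 0.05 in each direction (right) for 36 gene lists, with dotted lines at the 4.54% of all genes that were higher and the 4.63% that were lower. In the right panel, mitochondrially encoded genes have the largest share higher, followed by cholesterol genes (10 of 20) and fat tissue markers (3 of 6), and clock and immediate early genes the largest shares lower. MPTP-Veh, in open circles, shares the Con libraries with MPTP-SU.

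The remaining genes with the smallest p came from no list. On the higher side, Zfp518a, a zinc finger protein, was at 13.02, 13.3, 12.98 and 12.9 CPM in Con and 19.2, 16.98, 19.2 and 18.7 in MPTP-SU (log2 fold change 0.50 ± 0.10, adjusted p = 0.177), with Con libraries within a narrow range. Etv1, an ETS transcription factor of proprioceptive and other neurons, was at 51.4, 59.9, 52.9 and 50.2 CPM in Con and 66.9, 67.6, 67.9 and 60.9 in MPTP-SU (log2 fold change 0.30 ± 0.06, adjusted p = 0.177), and Adgrl4, an adhesion receptor of endothelium, at 24.6, 25.6, 24.5 and 25.8 CPM in Con and 28.5, 33.3, 29.5 and 28.6 in MPTP-SU (log2 fold change 0.25 ± 0.06, adjusted p = 0.414). Shisa6, an AMPA receptor partner (log2 fold change 0.29 ± 0.07), Srgap3, a regulator of neurite branching (log2 fold change 0.19 ± 0.05), Klf7, a transcription factor of axon growth (log2 fold change 0.24 ± 0.06), and Parpbp (log2 fold change 1.72 ± 0.41, adjusted p = 0.414) completed the 10 higher genes with Hsd17b7, Cd180 and Calca. Parpbp was near the floor of detection, with means of 0.228 ± 0.0850 CPM in Con and 0.758 ± 0.240 CPM in MPTP-SU (SD, n = 4). On the lower side, Narf was at 41.6, 44.4, 39.01 and 41.3 CPM in Con and 31.8, 32.1, 35.1 and 36.95 in MPTP-SU (log2 fold change -0.29 ± 0.07, adjusted p = 0.389). Itih3, a hyaluronan-binding protein made by astrocytes among other cells, was at 195, 165, 173 and 186 CPM in Con and 156, 131, 146 and 151 in MPTP-SU (log2 fold change -0.30 ± 0.07, adjusted p = 0.414). Mtfp1, a protein of mitochondrial fission (log2 fold change -0.35 ± 0.08, adjusted p = 0.414), Trmt1l, a tRNA-modifying protein (log2 fold change -0.27 ± 0.07), and Ddx4, a helicase known from germ cells (log2 fold change -0.80 ± 0.20), followed. Rpl14-ps1 (log2 fold change -0.46 ± 0.11) is a ribosomal pseudogene whose counts can share reads with Rpl14, so its value is uncertain. In each of these 20 genes the groups did not overlap, which the way they were chosen fixes.

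The same genes can be set beside the other MPTP groups, which share the Con libraries. Sgk1 averaged 29.2 ± 0.989 CPM in MPTP-Veh, 30.7 ± 3.42 with the CB1 antagonist and 31.5 ± 2.65 with the PPARγ antagonist (SD, n = 4 each), all below the 41.9 of Con and close to the 28.3 of MPTP-SU. Egr1 averaged 38.2, 32.6 and 39.2 CPM in that order, and Banp 19.1, 18.1 and 20.2. Per1 averaged 25.1 and 27.8 CPM in MPTP-Veh and MPTP-SU+S but 34.7 ± 4.35 in MPTP-SU+T, beside 35.9 ± 6.73 in Con. The cholesterol list had a median log2 fold change against Con of 0.09 in MPTP-Veh, 0.16 in MPTP-SU+S, 0.07 in MPTP-SU+T, beside 0.16 in MPTP-SU. The mitochondrially encoded list had 0.21, 0.36 and -0.07 beside 0.26. Microglia markers had 0.14, 0.11 and 0.13 beside 0.12, and the clock list -0.01, 0.02 and 0.03 beside -0.03. Heat shock genes and chaperones had -0.12, -0.13 and -0.13 beside -0.08, and nuclear complex I subunits -0.10, -0.10 and -0.10 beside -0.08.

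MPTP-SU was also tested against MPTP-Veh, the comparison in which SUEHP alone differs, and the Con libraries enter only its estimate of spread. The MPTP-SU libraries are the same as in the comparison with Con. Calca and Ddx4 were named for the distance of these libraries from Con, so their values here are not an independent check. At p below 0.05, 1.77% of genes were higher and 2.04% lower. In this contrast Calca was higher in MPTP-SU (log2 fold change 0.49 ± 0.12, adjusted p = 0.999), with a mean of 12.7 ± 1.28 CPM in MPTP-Veh beside 12.8 ± 1.98 CPM in Con. Ngfr had a difference of 0.66 ± 0.22 (adjusted p = 0.999) and Ddx4 of -0.61 ± 0.21 (adjusted p = 0.999). Markers of Schwann cells, nerve roots and sensory ganglia had a median of 0.47 in this contrast, with 2 of 10 higher and 0 lower at p below 0.05. The share of root tissue was not tested against Calca or Ngfr here either. Scara3, a scavenger receptor, differed by -0.65 ± 0.14 (adjusted p = 0.999), from 9.14 ± 0.815 to 5.84 ± 0.506 CPM, a level near the 6.69 ± 1.28 CPM of Con (log2 fold change -0.19 ± 0.14, adjusted p = 0.692 against Con). Sgk1 differed from MPTP-Veh by -0.04 ± 0.10 (adjusted p = 0.999), Hsd17b7 by 0.14 ± 0.08 (adjusted p = 0.999) and Bdnf by 0.31 ± 0.12 (adjusted p = 0.999).

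The midbrain libraries of the same groups allowed a test of whether the MPTP-SU minus Con difference itself differed between the tissues. In a limma model of all 40 libraries, 49 of 17426 genes passed an adjusted p of 0.05 with a difference above 1.5-fold (0.281%). The cord difference was above that of the midbrain in 46 and below it in 3. In 44 of them the midbrain difference was a lower level in MPTP-SU by more than 1.5-fold, while 47 had a spinal cord log2 fold change within 0.3 of 0. The first was Ctxn1, with a log2 fold change of -0.08 in the spinal cord and -1.32 in the midbrain (limma adjusted p = 0.000403). Camk2a, a kinase of forebrain synapses, averaged 156 ± 4.197 CPM in Con and 149 ± 6.95 CPM in MPTP-SU in the spinal cord, and 767 ± 301 and 364 ± 93.4 CPM in the midbrain (SD, n = 4). Neurod2, a transcription factor of cortical neurons, was at 6.37 ± 0.924 and 6.54 ± 0.993 CPM in the cord and 29.9 ± 16.7 and 6.32 ± 2.96 CPM in the midbrain. Both genes thus had like levels in both cord groups and lower means in the midbrain of MPTP-SU, where the Con libraries had the widest spread. Leaving out 1 library at a time gave between 6 and 72 genes in place of 49, with 6 without midbrain Con replicate 2 or midbrain MPTP-SU replicate 4, and 14 without spinal cord Con replicate 2. The 20 genes named above from the spinal cord were not among the 49. Egr1 had a midbrain log2 fold change of -0.88, Banp of -0.71, Per1 of -0.63 and Sgk1 of -0.24, beside -0.62, -0.68, -0.47 and -0.54 in the spinal cord in the same model. Hsd17b7 had 0.42 and 0.43. None of these differences between the tissues passed the test. ND4, higher in the spinal cord by 0.37, was at -0.34 in the midbrain (difference 0.72 ± 0.44, limma adjusted p = 0.600). Srgap3 had 0.20 in the spinal cord and -0.40 in the midbrain (limma adjusted p = 0.0550).

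**Figure D5:**
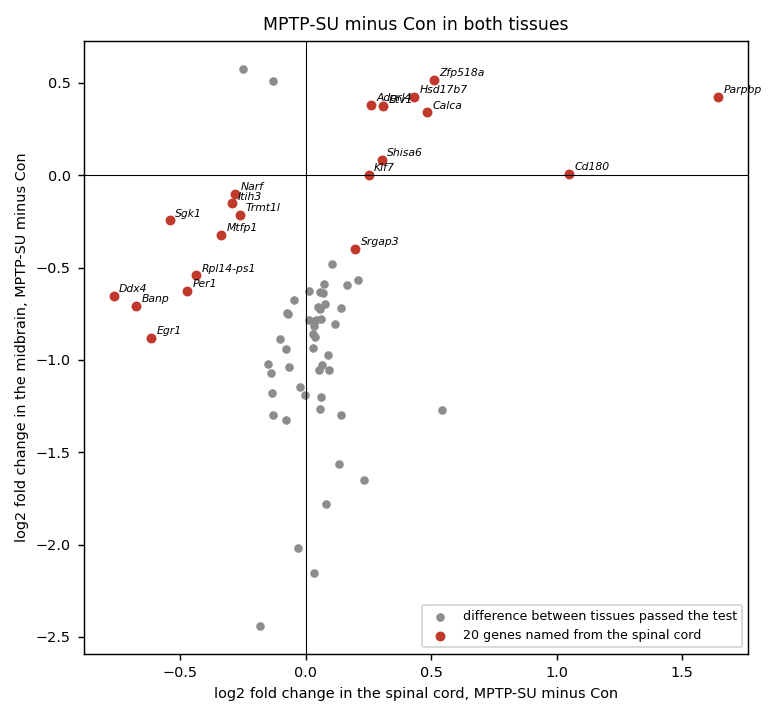
Log2 fold change of MPTP-SU over Con in the spinal cord (x) and midbrain (y), from the limma model, for 20 genes named from the spinal cord (red) and for genes whose difference between the tissues passed the test (grey; 1 of the 49 lies outside the plot). The grey points spread along the midbrain axis, most of them below 0, and stay near 0 on the spinal cord axis.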

How the data were processed

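RNA from the spinal cord and midbrain was sequenced in 40 libraries, 4 a group in each tissue. The authors selected poly(A) RNA, made libraries with the CORALL kit, read them as 100-bp pairs, trimmed with fastp, aligned with STAR and quantified with Salmon on GRCm39 (versions not given in the sources used here), and the deposited values are estimated counts per gene symbol, whole numbers for 40213 symbols. Groups came from the labels.

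edgeR 4.0.16 (R 4.3.3) was fitted to the 20 spinal cord libraries with TMM scaling, filterByExpr and the quasi-likelihood test, and the contrast MPTP-SU minus Con was called at a Benjamini-Hochberg adjusted p of 0.05 and a fold above 1.5. limma 3.58.1 (voom with quality weights by tissue) tested the difference between tissues, and DESeq2 1.42.0 was an alternative. Exact permutation tests used log2 CPM with a prior count of 2. The code was tested on simulated data.

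The members, gene lists and tests were chosen with earlier results of these data known. Named genes were the 10 with the smallest p in each direction whose groups did not overlap, leaving out predicted genes, up to 3 of smallest p from each list, and Th, Fos, Itgam, Aif1, Gfap, Mapk14, Bdnf, Cnr1, Pparg and Scara3. Other names were chosen after their values were seen. Some genes are not reported here and were left out of the lists. Totals of 14642808 to 16572206 counts limit genes under about 1 CPM. Promoter windows are on GRCm38.p6, another build than the counts. Replicate numbers were not used to pair the samples in the main models. Whether they pair the cord and midbrain of a mouse is not given in the sources used here.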

Additional observations from a re-analysis of the deposited data

Results flagged for a closer look

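Of 226 sets of 4 libraries examined for the genes and totals in the text, 17 held a library far from the other 3 by Dixon's criterion, which chance gives in about 1 of 20. There were 12 such sets in Con, 6 of them set by Con replicate 2. That library had Fam220a at 19.7 CPM against 0 to 0.399 in the other 3 Con libraries, Gm20482 at 0.905 CPM against 0 in each, and Cacna2d1 at 84.2 CPM against 59.6 to 61.4. It also had Glrb at 347 CPM against 272 to 284, Hoxc8 at 63.3 CPM against 54.6 to 55.9, and ND4 at 16463 CPM against 12478 to 12977. Con replicate 1 had Cck at 25.8 CPM against 20.6 to 21.3 in the other 3, Gfap at 929.9 CPM against 1132 to 1165, Grik3 at 29.9 CPM against 31.9 to 32.3, and Hoxd10 at 61.1 CPM against 41.4 to 44.5. Con replicate 3 had Egr1 at 63.5 CPM against 46.04 to 48.9, and Con replicate 4 had Rpl14-ps1 at 21.2 CPM against 14.3 to 14.9.

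In MPTP-SU, replicate 4 had Etv1 at 60.9 CPM against 66.9 to 67.9 and Npff at 0.807 CPM against 0.971 to 1.002. Replicate 3 had Lpl at 10.4 CPM against 6.18 to 6.89, replicate 2 had P2ry12 at 24.2 CPM against 28.3 to 29.1, and replicate 1 had Sqle at 102 CPM against 108 to 109. Cck, Egr1, Hoxd10 and Rpl14-ps1 were lower in MPTP-SU than in Con, and the library that stood apart was the highest of Con for each. In 49 genes the difference between MPTP-SU and Con in the spinal cord differed from that in the midbrain by limma's test.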

How the results depend on the processing

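No gene was called under scaling by RLE factors or by library size alone, a minimum of 10 counts in every library, the 8 libraries alone, limma-voom, or the adjusted p alone. Without a filter on low counts 10 were called (3 higher and 7 lower), with DESeq2 3 on 20 libraries (Egr1, Banp and Gm2436) and 2 on the 8 (Egr1 and Banp), and 223 passed an unadjusted p of 0.05 with a fold above 1.5. Leaving out each library gave 0 to 6, with Egr1, Sgk1, Banp, Per1, Fam220a and Gm20482 without Con replicate 2 and Sgk1 without Con replicate 4. The alternatives that left out Con replicates 1 and 2 together, or 1 library from the list counts, were chosen after seeing the data. Of 1634 fits of 97 genes in the text under an alternative, 1620 kept the direction and the side of the threshold, 13 (in 6 genes) passed it, and 1 turned, Bdnf, whose log2 fold change was 0.0524 without Con replicate 4 and down to -0.109 without another library. The 49 genes of the tissue test were 50 with edgeR (36 above and 14 below), 201 on 16 libraries alone (127 above and 74 below), and 6 to 72 without 1 library. The cause of these changes was not tested.

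Same-numbered Con and MPTP-SU libraries had deviations from their group means that correlated between -0.03 and 0.06. The main models paired no samples. Whether same-numbered cord and midbrain libraries come from the same mouse is not given in the sources used here. Their deviations correlated between -0.05 and -0.002 in Con and between 0.02 and 0.09 in MPTP-SU. The own number was the best match for replicates 1, 3 and 4 of MPTP-SU and for no Con replicate, so this pairing was not settled. A block of replicate number across the treatment groups gave 0 genes called between MPTP-SU and Con. In the test between the tissues the block was another one, the cord and midbrain libraries of the same group and number. With it 89 genes were called, 32 with the cord difference above that of the midbrain and 57 below it. The model without this block had 46 and 3, so the main direction of these calls turned. The blocks changed no other call. With 4 libraries a group, genes near or below 1 CPM, such as Egr4, Npff, Trpa1, Fabp4 and Parpbp, rest on few counts. Intervals cover the spread between libraries only.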

Other observations

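Fam220a, a gene of little-known function chosen after its values were seen, took 1 of 2 levels in the spinal cord. It was at 17.5, 12.9, 19.5 and 14.9 CPM in MPTP-SU and 0.399, 19.7, 0 and 0.3004 CPM in Con. In MPTP-Veh it was at 17.8, 0.945, 0.304 and 0.394 CPM, in MPTP-SU+S at 17.5, 17.8, 16.96 and 0 and in MPTP-SU+T at 0.286, 0, 0.242 and 0.249. Libraries of both levels were thus found in Con, MPTP-Veh and MPTP-SU+S, while MPTP-SU held the high level alone and MPTP-SU+T the low level alone. In all 20 libraries no value fell between 0.945 and 12.9 CPM. What separates the 2 levels was not tested, so the call of Fam220a without Con replicate 2 is not read as a difference between the treatments.

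Leptomeningeal fibroblast markers stood further from Con in MPTP-Veh than in MPTP-SU, with a median log2 fold change of 0.39 against 0.14, the latter 0.04 (MPTP-SU 3) to 0.26 (Con 3) without the library in brackets. Against MPTP-Veh, MPTP-SU had a median of -0.27, with 7 of 19 members lower and 1 higher at an unadjusted p of 0.05, where 2.04% and 1.77% of all genes were. Markers of Schwann cells and roots had a median of -0.41 in MPTP-Veh and -0.02 in MPTP-SU against the same Con libraries, the latter -0.16 (Con 2) to 0.11 (MPTP-SU 4) without the library in brackets.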
